A study of Mus musculus with 4 samples.

Results

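Haematopoietic stem cells (HSCs) that held transcript of Cdk6 were compared with HSCs of the same libraries in which no Cdk6 count was found. The animals were wild type and 8 weeks old, and the source was their bone marrow. Cells with the surface phenotype Lin-, Kit+, Sca1+, CD150+, CD48- and EPCR+ (CD201+) were gated further as CD27- or CD27+ and sequenced cell by cell with STRT-seq. All animals were untreated, no allele or agent separates the cells, and the gate of a cell (CD27- or CD27+) is not given with its counts, so both gates are mixed on both sides of the comparison. The 4 libraries are the replicates. Nothing in the labels says that they came from separate mice, so every p-value reflects library-to-library spread, part or all of which could be technical.

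A cell was kept if it had at least 10000 counts and at least 1000 genes. Cells that belonged to 2 runs of 8 consecutively numbered cells, in libraries 2 and 4, were left out. This kept 277 of the 297 cells in the table. A kept cell with at least 1 raw Cdk6 count is called Cdk6-positive and one with 0 counts Cdk6-zero. By this rule 54 cells were Cdk6-positive and 223 Cdk6-zero. The 15 cells of the runs that passed the minima held no Cdk6 count, so the 54 cells are the same with or without the runs. The number given to a cell within its library recurs across libraries, for all 91 numbers, and no pair of cells had identical counts.

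CDK6 is a cyclin-dependent kinase of early G1. With a D-type cyclin it phosphorylates the retinoblastoma family of pocket proteins, which releases E2F factors to switch on genes of DNA replication, and INK4 proteins inhibit it. In human and mouse haematopoiesis the amount of CDK6 is known to differ between the most quiescent stem cells and those that leave quiescence faster. Transcript in a cell is not protein, and a count of 0 does not show that a cell lacks the transcript.

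Cdk6 was carried by a minority of cells in every library. A Cdk6 count was found in 13 of 74 cells of library 1 (17.6%), 12 of 67 of library 2 (17.9%), 14 of 71 of library 3 (19.7%) and 15 of 65 of library 4 (23.1%). Over all libraries the share was 19.5%, with an exact 95% binomial interval of 15.0% to 24.7% that covers counting error only. The shares of the libraries lay within each other's intervals.

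Among the 54 cells the Cdk6 count ranged widely, with a median of 17 and a highest value of 111. Exactly 1 count was found in 11 cells, 2 counts in 4 cells, 3 to 9 counts in 8 cells and 10 or more in 31 cells. The 10 highest cells held 56.4% of the 1408 Cdk6 counts. Scaled to each cell's total and expressed as CPM, the lowest Cdk6-positive cell had 6.14 CPM, the median cell 158.9 CPM and the highest 1353 CPM. Cells just inside the rule, at 1 count, had 6.14 to 25.7 CPM, and those just outside it had 0. A stricter rule of at least 3 counts left 39 cells, 11, 5, 12 and 11 in libraries 1 to 4, with 2 cells at exactly 3 counts and 4 just outside at 2. Library 2 stood apart in this respect: 7 of its 12 Cdk6-positive cells had 1 or 2 counts, and its median was 2 counts, against 17, 16 and 25 in libraries 1, 3 and 4. The summed counts of the Cdk6-positive cells held 228, 170, 222 and 188 CPM of Cdk6 in libraries 1 to 4. These values chose the cells and are given as a description. The Cdk6 gene lies on chromosome 5 from 3341485 to 3531008 on the plus strand (GRCm38, GENCODE M21), where the annotated antisense genes Gm17590 and Gm42435 overlap it. Counting is not stated to use strand, so reads of the antisense genes cannot be told apart from those of Cdk6. Among genes named below, the same holds for Cdk2, Cdk4, Ccnd3, Ccne2, Ccnh, Rb1, Rbl2, E2f5, Lin37, Mcm7, Rtn3, Tspo, Junb, B2m, Rps18 and Cd27, each of which overlaps another gene of the table on the opposite strand.

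**Figure D1:**
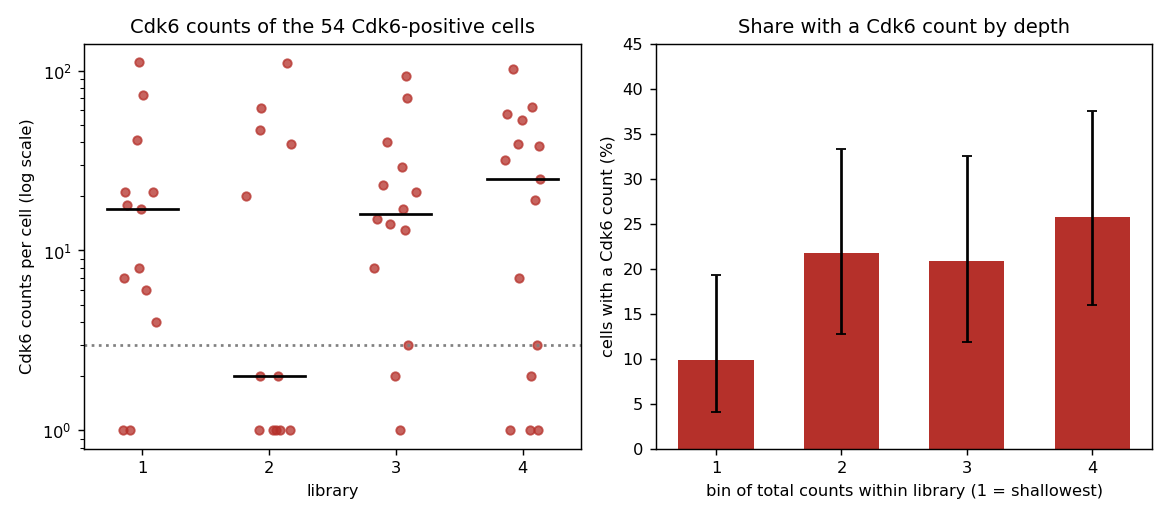
Left, raw Cdk6 counts (log scale) of the 54 Cdk6-positive cells by library, with a line at each library's median and a dotted line at 3 counts; library 2 holds 7 cells at 1 or 2 counts. Right, share of all kept cells with a Cdk6 count by 4 bins of total counts within the library, with exact 95% binomial intervals; the shallowest bin has 9.86% and the deepest 25.7%.

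How often Cdk6 was found moved with how deeply a cell was counted. With the cells of each library ranked by total counts and split into 4 bins, 7 of 71 cells (9.86%) in the shallowest bin had a Cdk6 count, in the next 15 of 69 (21.7%), in the next 14 of 67 (20.9%) and in the deepest 18 of 70 (25.7%). The median Cdk6-positive cell had 110926, 130598.5, 73050 and 149435 counts in libraries 1 to 4, against 88391, 108910, 62948 and 152905.5 counts for the median Cdk6-zero cell. Cdk6-positive cells were thus deeper in libraries 1 to 3 and shallower in library 4, with a mean difference of 12714 ± 12190 counts (SD, n = 4; exact two-sided sign-flip test over libraries, p = 0.25, where 4 libraries cannot go below 2 of 16 sign patterns). All counts of the Cdk6-positive cells summed to 1441797, 1690140, 1571003 and 2358917 in libraries 1 to 4, against 5969159, 6049516, 3679566 and 8244797 for the Cdk6-zero cells.

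Cdk6-positive cells held more detected genes. Their median was 3135, 3296.5, 3148 and 3268 genes in libraries 1 to 4, against 2940, 2840, 2830 and 3220 genes in Cdk6-zero cells. The difference was 254 ± 174 genes (SD, n = 4) and positive in 4 of 4 libraries, which gives the smallest p that the exact sign-flip test allows (2 of 16 sign patterns). With each cell thinned at random to 30000 counts, which left out 13 Cdk6-zero cells and no Cdk6-positive cell, the medians were 2715, 2659.5, 2765.5 and 2750 genes in Cdk6-positive cells and 2633, 2493, 2651.5 and 2600 genes in Cdk6-zero cells. The thinned difference was 128 ± 38 genes (SD, n = 4), again positive in 4 of 4 libraries (2 of 16 sign patterns). At this depth 42 of the 54 cells still held a Cdk6 count. The share of counts in ribosomal protein genes was 18.1% ± 0.9 in Cdk6-positive cells and 18.8% ± 0.6 in Cdk6-zero cells (SD of library medians, n = 4), lower in 4 of 4 libraries (2 of 16 sign patterns).

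For the gene comparison the counts of each side were summed within each library, and the 8 sums were tested with edgeR's quasi-likelihood test with library as a block. Values below are CPM of these sums, in the order of libraries 1 to 4, and a log2 fold change is Cdk6-positive over Cdk6-zero. The ± after it is an approximate standard error, the size of the fold change over the square root of the test's F statistic. No gene passed: 0 of 9816 genes tested (0%) had a Benjamini-Hochberg adjusted p below 0.05, and the lowest was 0.950, for Cd74. At an unadjusted p below 0.05 there were 372 genes (3.79%), of which 96 were higher (0.978%) and 276 lower (2.81%) in Cdk6-positive cells. DESeq2 on the same sums called 33 genes, 6 higher (0.0611%) and 27 lower (0.275%), and 27 of the 33 had a log2 fold change beyond 3 in size. limma on the mean over cells of log2(CPM + 1) called 4 genes higher (0.0407%) and none lower (0%). The median log2 fold change of all genes was -0.18, and 36.4% of genes had a positive one; against an equal number of Cdk6-zero cells matched in total counts that median was 0.03, and over cell means it was 0.19. Values of gene groups are therefore read beside the value for all genes in the same setting.

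Antigens of the sort were found on both sides at the transcript level. Procr (the gene of EPCR) was at 237, 448, 157 and 429 CPM in Cdk6-positive cells and 291, 314, 271 and 285 CPM in Cdk6-zero cells, Kit was at 220, 247, 194 and 273 CPM against 211, 214, 264 and 149 CPM, and Cd48 was at 0 in Cdk6-positive cells and had a count in 2 of 223 Cdk6-zero cells. Slamf1, which encodes CD150, was counted in 13 of 54 Cdk6-positive and 60 of 223 Cdk6-zero cells. Cd27 transcript was found after thinning in 53.7% of Cdk6-positive and 52.4% of Cdk6-zero cells, with a log2 fold change of 0.09 ± 0.28 (edgeR adjusted p = 1.00). These antigen genes were chosen for this check with their values known.

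No partner of CDK6 in the G1 kinase module passed the test. Ccnd2, a D-type cyclin, was counted in 53 of 54 Cdk6-positive cells and 216 of 223 Cdk6-zero cells, at 1350.4, 1220.0, 477 and 1217 CPM in Cdk6-positive cells and 929, 1026, 977 and 1039 CPM in Cdk6-zero cells. It was higher in libraries 1, 2 and 4 and lower in library 3, with a log2 fold change of -0.04 ± 0.21. Ccnd3 was at 68.7, 34.9, 42.6 and 58.1 CPM against 62.8, 63.8, 75.3 and 68.4 CPM in Cdk6-zero cells. Ccnd1 was sparse, counted in 8 of 54 Cdk6-positive and 31 of 223 Cdk6-zero cells, and was lower in 4 of 4 libraries (log2 fold change -1.91 ± 1.09). In all genes, the share lower in 4 of 4 libraries was 8.06%.

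Cdk4, the kinase that shares the D cyclins with CDK6, was at 304, 298, 317 and 173 CPM in Cdk6-positive cells and 307, 230, 228 and 256 CPM in Cdk6-zero cells, with a log2 fold change of 0.03 ± 0.22. A Cdk4 count was present after thinning in 74.1% of Cdk6-positive and 74.3% of Cdk6-zero cells. Cdk2, the kinase of the next step toward S phase, was at 102, 120, 126 and 48.3 CPM against 59.6, 68.3, 84.5 and 62.8 CPM in Cdk6-zero cells (log2 fold change 0.41 ± 0.37). Its cyclins Ccne1 and Ccne2 were too sparse to test, Ccne1 with counts in 1 Cdk6-positive and 5 Cdk6-zero cells and Ccne2 in 4 Cdk6-positive and 4 Cdk6-zero cells. The CDK-activating kinase genes gave log2 fold changes of -0.22 (Cdk7), 0.13 (Ccnh) and 0.24 (Mnat1), the phosphatase gene Cdc25a 0.12, and the kinase chaperone Cdc37 -0.16. Of the 10 module genes tested, 5 had a positive and 5 a negative log2 fold change, with a median of -0.0044, and none passed at an unadjusted p below 0.05.

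CDK inhibitor genes differed in direction, and none passed after adjustment. Cdkn1a (p21) was at 7.63, 29.0, 21.01 and 0.424 CPM in Cdk6-positive cells and 45.4, 68.3, 42.1 and 41.2 CPM in Cdk6-zero cells. All sums of Cdk6-positive cells lay below all sums of Cdk6-zero cells, which held for 2.65% of all genes. Its log2 fold change was -2.34 ± 0.93 (edgeR unadjusted p = 0.0274, adjusted p = 1.00), from counts in 8 of 54 Cdk6-positive and 28 of 223 Cdk6-zero cells. Cdkn1c (p57), a gene linked to HSC quiescence, was at 43.0, 21.3, 56.7 and 143 CPM in Cdk6-positive cells and 7.37, 44.5, 36.7 and 42.2 CPM in Cdk6-zero cells, higher in 3 of 4 libraries (log2 fold change 0.94 ± 0.65). It was counted in 16 of 54 Cdk6-positive and 51 of 223 Cdk6-zero cells. Cdkn1b (p27) had a log2 fold change of -2.18 ± 1.58 from 5 Cdk6-positive and 32 Cdk6-zero cells. Of the INK4 genes, whose proteins bind CDK4 and CDK6, Cdkn2d was at 196, 60.4, 117 and 184 CPM against 122, 120, 161 and 149 CPM in Cdk6-zero cells, while Cdkn2c was counted in 1 Cdk6-positive and 4 Cdk6-zero cells and Cdkn2b in 0 Cdk6-positive cells and 1 Cdk6-zero cell.

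Downstream of the kinase, Tfdp2, which encodes a dimerization partner of E2F proteins, was the member of the pocket protein, E2F and DREAM list with the lowest p. It was at 124.8, 89.9, 108 and 123 CPM in Cdk6-positive cells and 39.0, 64.3, 78.3 and 46.2 CPM in Cdk6-zero cells. The sides did not overlap, which in this direction held for 1.35% of all genes. The log2 fold change was 0.96 ± 0.38 (edgeR unadjusted p = 0.0263, adjusted p = 1.00), and it was between 0.11 and 1.43 under 17 alternatives. After thinning, 38.9% of Cdk6-positive and 23.3% of Cdk6-zero cells had a Tfdp2 count, with the higher share in Cdk6-positive cells in 4 of 4 libraries. Thinned Cdk6-positive cells also held more detected genes in general in 4 of 4 libraries.

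Rbl1 (p107) was at 36.1, 49.1, 40.1 and 18.7 CPM in Cdk6-positive cells and 21.1, 18.8, 15.5 and 8.25 CPM in Cdk6-zero cells, higher in 4 of 4 libraries as were 5.13% of all genes (log2 fold change 1.11 ± 0.75). Rbl2 (p130) was at 15.95, 22.5, 3.18 and 1.70 CPM against 27.5, 11.1, 8.97 and 18.1 CPM in Cdk6-zero cells, and Rb1 was counted in 5 Cdk6-positive and 6 Cdk6-zero cells. The activating factor E2f1 was higher in 4 of 4 libraries from counts in 4 Cdk6-positive and 14 Cdk6-zero cells. E2f2 was found in 2 Cdk6-positive cells and no Cdk6-zero cell, and E2f8 in 4 Cdk6-positive cells and 1 Cdk6-zero cell. The other E2F genes tested gave log2 fold changes of -0.10 (E2f3), 0.03 (E2f4), -2.55 (E2f5) and -2.004 (E2f6), and the DREAM subunit genes 0.97 (Lin9), -0.27 (Lin37), 0.11 (Lin52), 0.20 (Lin54) and 0.29 (Rbbp4). Tfdp1 gave 0.41. Of the 15 genes tested 10 had a positive log2 fold change, with a median of 0.20 beside -0.18 for all genes; with Cdk6-positive cells taken at 3 or more counts the median was -0.74 beside -0.40 for all genes. It was -0.36 beside -0.32 without cells that held Mki67, Birc5 or Ccnb2, 0.40 beside 0.03 against depth-matched Cdk6-zero cells and 0.31 beside 0.19 over cell means.

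Rpa2 was among the genes with the lowest p in the higher direction and kept its direction under every alternative run. It encodes a subunit of replication protein A, which coats single-stranded DNA in replication and repair. It was at 214, 143, 158 and 154 CPM in Cdk6-positive cells and 83.4, 32.9, 111 and 22.7 CPM in Cdk6-zero cells, a mean of 167 ± 32 CPM in Cdk6-positive and 62.4 ± 41.7 CPM in Cdk6-zero cells (SD, n = 4). The lowest Cdk6-positive sum was above the highest Cdk6-zero sum, as held for 1.35% of all genes. The log2 fold change was 1.63 ± 0.39 (edgeR unadjusted p = 0.00144, adjusted p = 1.00). Over 17 alternatives it was between 0.98 and 2.34, with an adjusted p between 0.0264 (DESeq2) and 1.00, and it passed under DESeq2 and, at 0.0479, under limma on cell means. Counts were present in 27 of 54 Cdk6-positive and 49 of 223 Cdk6-zero cells. After thinning the shares were 46.2%, 41.7%, 64.3% and 40.0% of Cdk6-positive cells and 25.4%, 11.5%, 30.0% and 10.2% of Cdk6-zero cells in libraries 1 to 4, without overlap. Thinned Cdk6-positive cells also held more detected genes in general (128 ± 38, SD, n = 4). How many of all genes lack overlap in thinned shares was not counted. Rpa2 lies on chromosome 4 from 132768332 to 132778752.

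**Figure D2:**
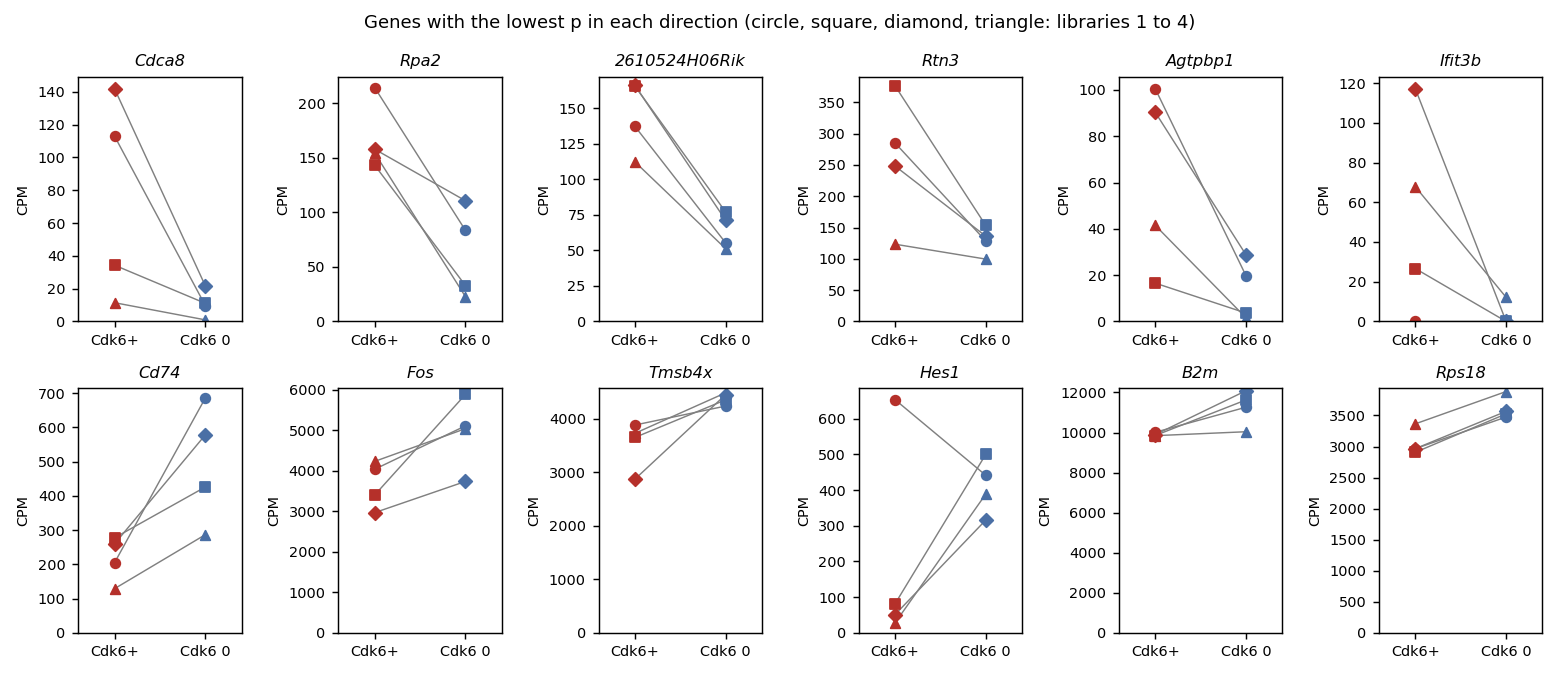
CPM of summed counts of Cdk6-positive cells (red, left) and Cdk6-zero cells (blue, right) for the 6 genes with the lowest p in each direction, with a line joining the 2 sides of each library. Rpa2 and 2610524H06Rik do not overlap between the sides, and Hes1 is low in Cdk6-positive cells of libraries 2 to 4 but at 653 CPM in library 1.

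The other replication genes were also mostly above the value for all genes in the summed counts, and few cells held much of their signal. Of 28 tested genes of S phase and replication licensing, 24 had a positive log2 fold change, with a median of 0.63, against -0.18 for all genes. None passed after adjustment, and 6 were higher at an unadjusted p below 0.05 (0.978% of all genes). In 4 of 4 libraries 7 were higher (25.0% of the list, 5.13% of all genes). The list includes Rpa2. By library its median was 0.96, 1.62, 0.99 and -0.23 in libraries 1 to 4, so library 4 did not share the direction.

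Subunits of the MCM helicase, which licenses replication origins, were higher in 3 or 4 of 4 libraries. Unlike the list's median, Mcm4, Mcm5 and Mcm7 were higher in library 4 too. Mcm5 was at 31.9, 113, 170 and 50.02 CPM in Cdk6-positive cells and 24.0, 26.1, 50.01 and 11.4 CPM in Cdk6-zero cells, higher in 4 of 4 libraries (log2 fold change 1.56 ± 0.49, unadjusted p = 0.00794 by edgeR). Mcm7 was at 168, 109, 225 and 86.9 CPM against 78.4, 67.8, 79.9 and 52.3 CPM in Cdk6-zero cells (0.95 ± 0.31). Its sides did not overlap, as in 1.35% of all genes in this direction. Mcm4 was higher in 4 of 4 libraries (1.28 ± 0.39), and Mcm2 (1.18 ± 0.46), Mcm3 (0.44 ± 0.44) and Mcm6 (0.45 ± 0.25) in 3 of 4. Rrm1, a subunit of ribonucleotide reductase, was at 105, 122, 269 and 10.6 CPM against 21.9, 27.6, 47.3 and 31.5 CPM in Cdk6-zero cells. Dut, a dUTPase that is among the most highly counted genes of the list, was above in libraries 2 and 3 and below in libraries 1 and 4 (0.44 ± 0.30). The MCM genes and Rrm1 were chosen with their values known, and Mcm6 is also among the 2 highest of the list.

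The deepest Cdk6-positive cell of each library weighed heavily on these sums. It made up 16.5%, 18.3%, 22.1% and 11.2% of all counts of the Cdk6-positive side in libraries 1 to 4 and 27.6%, 61.0%, 45.3% and 8.46% of its counts in the replication list. Without these 4 cells the list's median was 0.09, with 16 of 27 genes positive, beside -0.23 for all genes. With 3 or more Cdk6 counts it was 0.06 beside -0.40, and without cells holding Mki67, Birc5 or Ccnb2 it was 0.06 beside -0.32. With cells chosen by their Cdk6 count after thinning it was -0.12 beside -0.24. Other treatments kept a higher value: it was 0.73 (23 of 27 genes positive) beside 0.03 against depth-matched Cdk6-zero cells, 0.34 (17 of 22) beside -0.14 with all cells thinned, and 0.55 (26 of 28) beside 0.19 over cell means. Leaving out 1 library gave 0.27 (without library 2) to 1.12 (without library 4). After thinning, the median Cdk6-positive cell held 37, 33, 39 and 35 counts of these genes in libraries 1 to 4, against 28, 29.5, 32 and 26 counts for the median Cdk6-zero cell, so it was higher in 4 of 4 libraries.

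Genes of G2 and mitosis were higher in the summed counts of Cdk6-positive cells in libraries 1 and 3. Of 27 tested genes 25 had a positive log2 fold change, against 36.4% of all genes, with a median of 0.87 beside -0.18. At an unadjusted p below 0.05, 4 were higher, as were 0.978% of all genes. The list's median was 2.55, 0.09, 1.19 and -0.67 in libraries 1 to 4. Birc5, a subunit of the chromosomal passenger complex, was at 234, 1.18, 135 and 0.848 CPM in Cdk6-positive cells and 0.335, 0.165, 42.1 and 35.8 CPM in Cdk6-zero cells. Mki67, the proliferation antigen, was at 126, 52.1, 72.6 and 0 CPM against 7.04, 2.64, 7.88 and 0.728 CPM in Cdk6-zero cells. Cdca8, which encodes another subunit of the passenger complex, was the gene with the lowest p among those higher. It was at 113, 34.3, 142 and 11.4 CPM against 9.72, 11.1, 21.7 and 0.970 CPM in Cdk6-zero cells, from 7 of 54 Cdk6-positive and 19 of 223 Cdk6-zero cells (log2 fold change 2.65 ± 0.60, edgeR unadjusted p = 0.000975, adjusted p = 1.00). DESeq2 called it (adjusted p = 0.00549, the lowest over its 16 alternatives, whose highest was 1.00). Hmgb2 and Smc4, the most highly counted genes of the list, gave 0.41 ± 0.36 and 0.09 ± 0.32.

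Much of this signal lay in few cells. The deepest Cdk6-positive cell held 79.0%, 33.3%, 43.7% and 12.1% of the side's G2 and mitosis counts in libraries 1 to 4. Without those cells the list's median was -0.24, with 9 of 22 genes positive, beside -0.23 for all genes. Without cells holding Mki67, Birc5 or Ccnb2 it was -0.44 (3 of 16 positive) beside -0.32. That setting left cells out by transcripts of mitosis themselves, so its value is no separate support. With all cells thinned the list's median was 0.09 (11 of 17) beside -0.14. It was 0.58 (19 of 25) beside -0.40 with 3 or more Cdk6 counts, 0.96 (20 of 22) beside 0.03 against depth-matched Cdk6-zero cells and 0.42 (25 of 27) beside 0.19 over cell means. Without library 1 it was -0.04 and without library 3 it was 0.29, against 1.31 without library 2 and 1.401 without library 4. A count of Mki67, Birc5 or Ccnb2 was found in 7 of 13, 3 of 12, 2 of 14 and 3 of 15 Cdk6-positive cells (53.8%, 25.0%, 14.3% and 20.0%), against 8.20%, 7.27%, 19.3% and 30.0% of Cdk6-zero cells. The share was higher in libraries 1 and 2 and lower in libraries 3 and 4, a difference of 12.1 ± 25.4 percentage points (SD, n = 4; exact sign-flip test, p = 0.5). Pooled over libraries and not thinned, 6 of 54 Cdk6-positive cells (11.1%) and 7 of 223 Cdk6-zero cells (3.14%) had at least 10 counts of these genes. At least 100 counts were present in 3 Cdk6-positive cells and 1 Cdk6-zero cell. These pooled numbers describe cells and are not a comparison over libraries. Most Cdk6-positive cells, 39 of 54, held none of the 3 transcripts.

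**Figure D3:**
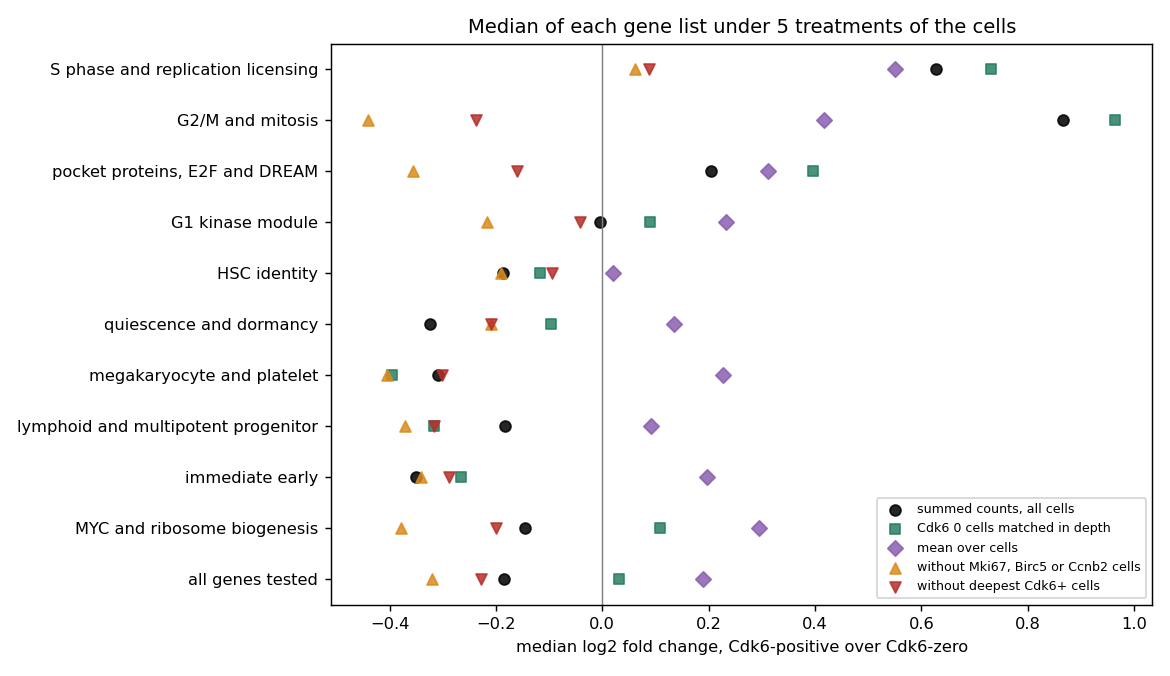
Median log2 fold change (Cdk6-positive over Cdk6-zero) of each gene list and of all genes tested, from summed counts (black circles) and 4 other treatments of the cells. The replication and mitosis lists are at 0.63 and 0.87 in the summed counts, and at 0.09 and -0.24 without the deepest Cdk6-positive cell of each library; over cell means most lists and all genes are above 0.

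Several genes outside the lists above were higher in the summed counts of Cdk6-positive cells, and none passed edgeR's test after adjustment. Numbers of cells with a count are before thinning unless stated. At equal depth Cdk6-positive cells also held more detected genes in general. How many of all genes had a larger share of cells after thinning was not counted. 2610524H06Rik was at 137, 166, 166 and 112 CPM in Cdk6-positive cells and 55.3, 77.0, 71.2 and 51.2 CPM in Cdk6-zero cells, with no overlap, as in 1.35% of all genes in this direction (log2 fold change 1.14 ± 0.30, edgeR unadjusted p = 0.00251, adjusted p = 1.00). Leaving out any 1 library kept the value between 1.11 and 1.17. Rtn3, a reticulon of the endoplasmic reticulum, was at 285, 376, 248 and 123 CPM against 128, 153, 136 and 99.6 CPM in Cdk6-zero cells and was counted after thinning in 70.4% of Cdk6-positive and 52.4% of Cdk6-zero cells. Agtpbp1, a carboxypeptidase that trims tubulin tails, was at 101, 16.6, 90.4 and 41.5 CPM against 19.8, 3.64, 28.8 and 1.58 CPM in Cdk6-zero cells, from 17 of 54 Cdk6-positive and 25 of 223 Cdk6-zero cells. DESeq2 called Agtpbp1 (adjusted p = 0.0359, with 1.00 the highest over 16 alternatives). Ifit3b, an interferon-induced gene with near-identical paralogs whose reads may be split, was counted in 5 Cdk6-positive and 3 Cdk6-zero cells.

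Csrp2, which encodes a LIM domain protein, was at 110, 96.4, 63.7 and 283 CPM in Cdk6-positive cells and 68.4, 29.3, 39.7 and 14.9 CPM in Cdk6-zero cells. It was one of the genes that limma on cell means called, with Rpa2, Tmco1 and Tspo, and is named for that after its values were seen. Its log2 fold change was 1.68 ± 0.58 (edgeR unadjusted p = 0.0141) and its adjusted p ranged from 0.0479 to 1.00 over 17 alternatives. After thinning, 46.2%, 50%, 35.7% and 60% of Cdk6-positive cells held a Csrp2 count, against 25.4%, 11.5%, 18% and 8.16% of Cdk6-zero cells. Tmco1 was counted in 53 of 54 Cdk6-positive and 171 of 223 Cdk6-zero cells, with a log2 fold change of its sums of 0.37. Tspo, which encodes a protein of the outer mitochondrial membrane, was counted in 53 of 54 Cdk6-positive and 178 of 223 Cdk6-zero cells, with 0.21. The cytokine signalling list as a whole had 8 of 18 genes positive and a median of -0.24.

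**Figure D4:**
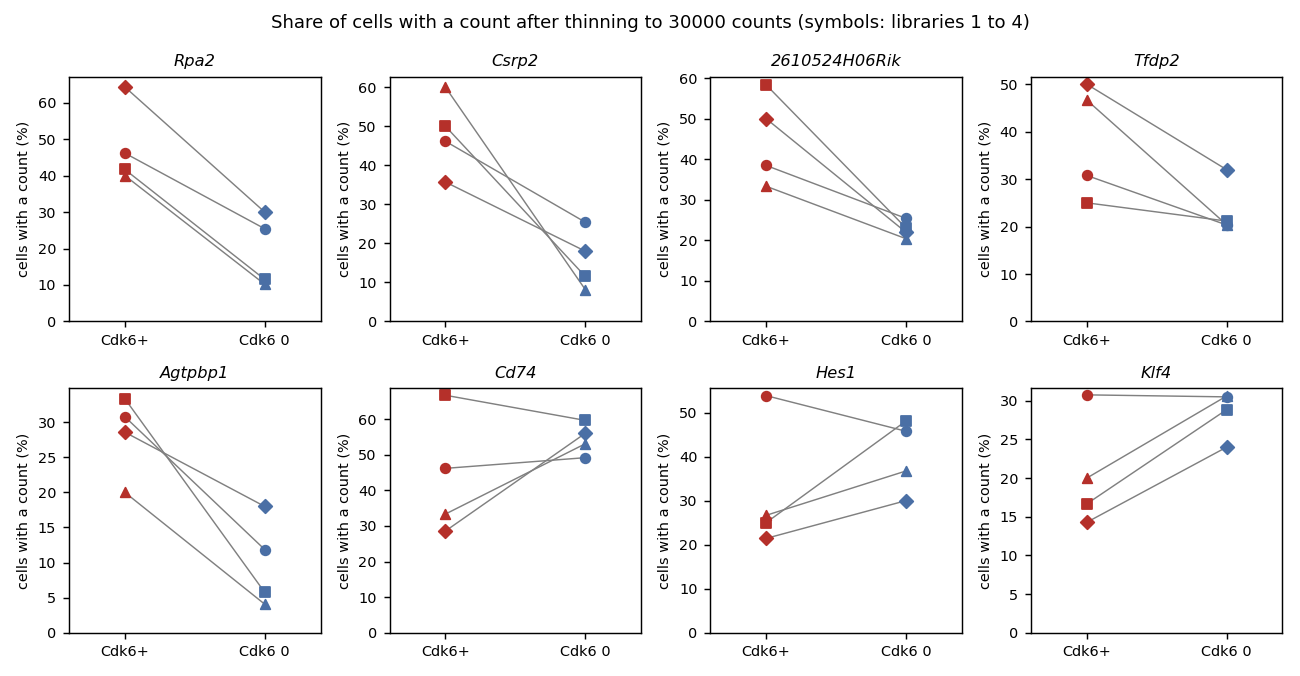
Share of cells with a count of each gene after thinning to 30000 counts, in Cdk6-positive cells (red, left) and Cdk6-zero cells (blue, right), with a line joining the 2 sides of each library. Rpa2 and Csrp2 do not overlap between the sides, and Cd74 is lower in Cdk6-positive cells in libraries 1, 3 and 4 but higher in library 2. How many of all genes lack overlap in these shares was not counted, and thinned Cdk6-positive cells held more detected genes in general.

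On the lower side, Cd74, the invariant chain of MHC class II, had the lowest p of all genes. It was at 205, 277, 260 and 129 CPM in Cdk6-positive cells and 686, 426, 578 and 287 CPM in Cdk6-zero cells, a mean of 218 ± 67 CPM in Cdk6-positive and 494 ± 175 CPM in Cdk6-zero cells (SD, n = 4). The sides did not overlap, which in this direction held for 2.65% of all genes. The log2 fold change was -1.21 ± 0.21 (edgeR unadjusted p = 9.67e-05, adjusted p = 0.950). Over 17 alternatives it was between -1.49 and -0.29 with an adjusted p between 0.00235 (DESeq2, which called it) and 0.999. The share of cells with a Cd74 count differed less than the sums, at 42.6% of Cdk6-positive and 54.3% of Cdk6-zero cells after thinning, and library 2 went the other way at 66.7% of Cdk6-positive and 59.6% of Cdk6-zero cells. Of the class II chains, which were chosen after their values were seen, H2-Aa was at 90.2, 183, 64.9 and 30.5 CPM in Cdk6-positive cells and 164, 203, 164 and 123 CPM in Cdk6-zero cells, lower in 4 of 4 libraries (-1.12 ± 0.34). H2-Ab1 gave -0.89 ± 0.38, lower in 3 of 4, and H2-Eb1 -0.74 ± 0.77, lower in 2 of 4. B2m, the light chain of MHC class I, was at 10010.4, 9849, 9892 and 9843 CPM against 11263, 11626, 12086 and 10038 CPM in Cdk6-zero cells, with a log2 fold change of -0.22 ± 0.06.

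Immediate early genes, which code for fast-induced factors such as AP-1 and are raised by handling of cells, were mostly lower in the sums. Of 20 tested, 16 had a negative log2 fold change, against 63.6% of all genes, with a median of -0.35 beside -0.18. At an unadjusted p below 0.05, 8 were lower, as were 2.81% of all genes. Fos was at 4041, 3404, 2969 and 4235 CPM in Cdk6-positive cells and 5113, 5890, 3740 and 5044 CPM in Cdk6-zero cells, lower in 4 of 4 libraries (log2 fold change -0.47 ± 0.09, edgeR unadjusted p = 0.000343, adjusted p = 1.00). DESeq2 called Fos (adjusted p = 0.00322, with 1.00 the highest over 17 alternatives), and over cell means its log2 difference was 0.014. Klf4 was at 68.0, 29.0, 17.8 and 49.2 CPM against 85.6, 108, 79.9 and 111 CPM in Cdk6-zero cells (-1.41 ± 0.45). Its sides did not overlap, as in 2.65% of all genes in this direction. Dnajb1 (-1.07 ± 0.35), Nr4a1 (-1.82 ± 0.67), Ier2 (-0.32 ± 0.13), Junb (-0.38 ± 0.16) and Klf2 (-0.39 ± 0.18) were also lower in sum, whereas Jun gave -0.12 ± 0.09. The direction depended on how cells were weighed: over cell means the list's median was 0.20, beside 0.19 for all genes. With all cells thinned it was -0.16 (6 of 19 positive) beside -0.14, and against depth-matched Cdk6-zero cells -0.26 (4 of 18 positive) beside 0.03. After thinning, the median Cdk6-positive cell held 738, 535, 478 and 432 counts of the list and the median Cdk6-zero cell 490, 574.5, 457.5 and 600.

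Hes1, a target of Notch signalling, was at 653, 81.1, 50.9 and 27.6 CPM in Cdk6-positive cells and 441, 500, 316 and 389 CPM in Cdk6-zero cells. It was far lower in libraries 2 to 4 and higher in library 1 (log2 fold change -2.24 ± 0.57, edgeR adjusted p = 1.00). Without library 1 it was the only gene called, at -3.04 with an adjusted p of 0.0281, where its adjusted p over 17 alternatives reached 1.00. A Hes1 count was present in 25 of 54 Cdk6-positive and 106 of 223 Cdk6-zero cells. Tmsb4x, an actin-binding peptide gene, was at 3881, 3648, 2868 and 3725 CPM against 4235, 4351, 4449 and 4483 CPM in Cdk6-zero cells (-0.36 ± 0.09), and Rps18 gave -0.29 ± 0.07. Both had no overlap between the sides, as had 2.65% of all genes in this direction.

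Genes that define HSCs had a median close to that of all genes, at -0.19 beside -0.18. Of 30 tested, 22 had a negative log2 fold change (63.6% of all genes). At an unadjusted p below 0.05, 4 were lower, against 2.81% of all genes. Among these were Ly6a (Sca1) at 450, 608, 334 and 664 CPM in Cdk6-positive cells and 684, 735, 700 and 658 CPM in Cdk6-zero cells, Ctnnal1 (-1.15 ± 0.46) and Pdzk1ip1 (-0.36 ± 0.16). Ctnnal1 did not overlap between the sides, as was so for 2.65% of all genes in this direction. The transcription factor genes Hlf and Mecom gave -0.33 ± 0.18 and -0.42 ± 0.27, and the highly counted Ifitm1 and Ifitm3 -0.23 ± 0.13 and -0.16 ± 0.14.

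Quiescence and dormancy genes had 13 of 18 negative, with a median of -0.32 beside -0.18 and 63.6% negative for all genes. Against depth-matched Cdk6-zero cells the median was -0.10 beside 0.03. Apoe was at 1342, 1554, 1240.0 and 1658 CPM in Cdk6-positive cells and 1595, 1675, 1757 and 1800.4 CPM in Cdk6-zero cells, lower in 4 of 4 libraries (-0.29 ± 0.11). Txnip, a brake on glucose uptake, gave -0.29 ± 0.12 and was higher in library 1. Megakaryocyte and platelet genes had 12 of 14 negative, with a median of -0.31, beside 63.6% negative and -0.18 for all genes. Their median was -0.40 beside 0.03 against depth-matched Cdk6-zero cells. Over cell means it was 0.23 (9 of 14 positive) beside 0.19, so the direction depended on how cells were weighed. Gng11 in that list was at 542, 493, 456 and 552 CPM against 676, 621, 767 and 672 CPM in Cdk6-zero cells (-0.46 ± 0.15). Its sides did not overlap, as in 2.65% of all genes in this direction. Cd9 gave -0.41 ± 0.19, while Vwf gave 0.37 ± 0.39. Lymphoid and multipotent progenitor genes had 4 of 11 positive and a median of -0.18. Flt3 (0.07 ± 1.07) and Cd34 (-0.18 ± 0.35), which mark progenitors downstream of HSCs, and Bcl11a (0.20 ± 0.27) did not pass at an unadjusted p below 0.05. Wfdc17 was at 0.694, 15.98, 1.27 and 9.33 CPM against 43.2, 43.5, 49.7 and 51.5 CPM in Cdk6-zero cells, from 5 of 54 Cdk6-positive and 40 of 223 Cdk6-zero cells, but its shares after thinning were 7.41% of Cdk6-positive and 10.5% of Cdk6-zero cells.

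Growth and metabolism lists gave small values. Of 20 MYC target and ribosome biogenesis genes 6 were positive, with a median of -0.14, Npm1 giving -0.08 ± 0.15 and Ncl 0.24 ± 0.16. Of 92 ribosomal protein genes, taken by symbol and so including a few S6 kinase genes, 67 were negative with a median of -0.09, and 16 were lower in 4 of 4 libraries (17.4%, against 8.06% of all genes). Nuclear genes of oxidative phosphorylation had 39 of 89 positive and a median of -0.04, and mitochondrially encoded genes 4 of 12 and -0.06. Myeloid genes had 2 of 8 positive (median -0.28), and erythroid genes 6 of 9 (0.16), where Hba-a1 in library 3 stood at 534 CPM in Cdk6-positive cells against 47.3 CPM in Cdk6-zero cells, with 71.4% of its Cdk6-positive counts in 1 cell. The erythroid median was -0.66 (2 of 8 positive) without library 3 and 0.56 (9 of 9) without library 4.

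Markers of other cell types were low on both sides. Summed over the listed genes, B cell markers reached 9.71 to 111 CPM in Cdk6-positive cells and 99.5 to 124 CPM in Cdk6-zero cells, nearly all of it Cd79b, and Ms4a1 and Pax5 were at 0 in Cdk6-positive cells. T and NK markers were at 27.4 to 103 CPM against 48.1 to 130 CPM in Cdk6-zero cells, with Cd3e at 0 in Cdk6-positive cells and Lck in 1 of 54 Cdk6-positive and 31 of 223 Cdk6-zero cells. Macrophage markers were at 0 to 52.8 CPM against 10.9 to 27.5 CPM in Cdk6-zero cells, with C1qb, Vcam1 and Cd5l at 0 in Cdk6-positive cells. Stromal markers were at 0 to 65.7 CPM against 8.43 to 49.5 CPM in Cdk6-zero cells, and the only mast cell marker in the table, Cpa3, was in 1 Cdk6-positive cell and 0 Cdk6-zero cells. Endothelial markers, several of which HSCs express, were at 442 to 543 CPM against 413 to 675 CPM in Cdk6-zero cells, with Cdh5 and Plvap at 0 in Cdk6-positive cells.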

How the data were processed

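The deposited table holds raw counts per gene and cell, made by the authors, per the submitters' processing notes, on the GRCm38 build with HISAT2 2.1.0, Trimmomatic 0.36 and HTSeq 0.9.1. Nothing states that PCR copies were collapsed, and intervals cover counting error only. The table has 13742 genes and 297 cells. No doublet caller was run. Cells were sorted into separate tubes with scatter settings against doublets, per the labels' protocols. Libraries were read from cell names.

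Counts were summed per library and side (8 sums) and tested with edgeR 4.0.16 (R 4.3.3, TMM, filterByExpr with min.count 10, library as block, quasi-likelihood, Cdk6 left out). The 2 sides of a library come from the same preparation, which is the pairing. Alternatives used DESeq2 1.42.0, limma 3.58.1 on cell means of log2(CPM + 1), thinning, depth matching, other filters, a fit with no block and fits leaving out cells or a library. The members and the gene lists were chosen with earlier results of these data known. Genes were named as all measured members of the G1 kinase, CDK inhibitor and E2F lists, the 2 highest of each other list and the 6 with the lowest p in each direction; the others were chosen after their values were seen. The edgeR procedure was tested on 1 set of simulated data. It called 0 of 50 genes with a true log2 change of 0.5 and 2 of 50 at 1. At 2 it called 15 of 50, at 3 it called 25 of 50, and of 9616 unchanged genes it called 5. A gene that did not pass is therefore not shown to be unchanged. A few genes that these rules name are not reported here.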

Additional observations from a re-analysis of the deposited data

Results flagged for a closer look

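In 6 of 86 groups of 4 libraries 1 library stood far from the other 3, where chance gives about 1 in 20. In Cdk6-positive cells Hes1 was at 653 CPM and Cyr61 at 72.1 CPM in library 1, and Rps18 at 3365 CPM in library 4. The Cyr61 counts of Cdk6-positive cells were to 97.2% in 1 cell. In Cdk6-zero cells Cdkn1a was at 68.3 CPM in library 2, and Ifit3b at 12.1 CPM and Ube2c at 13.2 CPM in library 4.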

How the results depend on the processing

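The count of genes called was 0, and it was 33 with DESeq2, 4 with limma on cell means and 0 to 1 when 1 library was left out (Hes1 without library 1). With no replicate block it was 0 and with the 2 runs of cells kept it was 0, with 366 and 373 genes at an unadjusted p below 0.05. Of 637 log2 fold changes of 39 genes under 17 alternatives, 631 kept their sign. The 6 others were Fos 0.014, Ier2 0.20, Junb 0.52 and Klf2 0.30 over cell means, where the median of all genes was 0.19 in place of -0.18, Mcm5 -0.16 with members chosen after thinning and Mcm7 -0.24 without cells holding Mki67, Birc5 or Ccnb2; the cause was not tested. Over cell means the immediate early median was 0.20. Leaving out the deepest cells was added after the data were seen. The mitochondrial limit of 20% removed 0 cells, so its fold changes could not differ from the main ones. The other alternatives reuse many of the same cells. Most of the 39 genes were chosen by low p or after their values were seen, so the kept signs are not independent support. With 12 to 15 Cdk6-positive cells per library, genes in few cells have wide errors, and the part of depth and of cycling cells in the remaining differences was not tested.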
